A study of Rattus norvegicus with 24 samples.

Results

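Interneurons of the striatum are classed by a small set of marker genes, and 9 of them were followed here through every treatment group: the calcium-binding protein genes Calb1, Calb2 and Pvalb, the neuropeptide genes Sst and Npy, the enzyme genes Nos1 and Chat, and the LIM homeobox genes Lhx6 and Lhx8. They were chosen by symbol from 32883 genes in the files. Of the 9 genes, 8 reached the level needed for testing (0.5 FPKM as deposited in 2 libraries), and Chat did not. RNA was sequenced from primary striatal neurons of neonatal rats on day 7 in culture. Experiment 1 had 4 groups at 60 min (DMSO, SKF, JQ1, and SKF with JQ1), experiment 2 had DMSO, SKF, iBD2, and SKF with iBD2 at 60 min, and experiment 3 had the groups of experiment 1 at 24 h. SKF is an agonist of the D1 dopamine receptor, JQ1 inhibits the bromodomains of the BET proteins, iBD2 is the second inhibitor, named here as in the labels, and DMSO, the solvent, stood in wherever an agent was left out. Each of the 12 groups had 2 libraries, except SKF with iBD2, for which 1 library was analysed here, giving 23 libraries of 4.36 to 14.9 gigabases of aligned sequence. The labels give no doses, and they do not tell whether a group's libraries stem from separate cultures. The p-values therefore speak only to library-to-library spread, possibly technical.

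Most striatal neurons are GABAergic projection neurons, and the interneurons among them are a minority of several kinds. One kind makes somatostatin, neuropeptide Y and neuronal nitric oxide synthase together, another is the fast-spiking parvalbumin cell, yet another makes calretinin, and the large cholinergic cells make choline acetyltransferase. Many of these cells come from the medial ganglionic eminence of the embryo, where Lhx6 directs the GABAergic kinds and Lhx8 the cholinergic kind, while Calb1 also marks projection neurons of the striatal matrix. Stimulation of the D1 receptor raises cAMP, which acts on genes through CREB at the cAMP response element, and Sst is a classical gene with such an element. In these cultures any cell may carry such a transcript, and in bulk RNA fewer cells of a type and less RNA per cell cannot be told apart.

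The sequences around the starts of Sst, Nos1 and Npy are shown because these are markers of 1 interneuron kind whose levels parted at 24 h, as given further on. They are 170 bases from RefSeq on GRCr8 (150 before the RefSeq start and 20 from it), written 5′ to 3′ along the gene, and capitals mark the cAMP response element TGACGTCA and its 7-letter core TGACGTC.
Sst chr11:90461396-90461565, plus strand: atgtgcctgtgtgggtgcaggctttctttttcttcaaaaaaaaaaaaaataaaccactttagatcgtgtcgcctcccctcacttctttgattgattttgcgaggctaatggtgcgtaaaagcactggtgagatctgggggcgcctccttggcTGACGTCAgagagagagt
Nos1 chr12:44371818-44371987, minus strand: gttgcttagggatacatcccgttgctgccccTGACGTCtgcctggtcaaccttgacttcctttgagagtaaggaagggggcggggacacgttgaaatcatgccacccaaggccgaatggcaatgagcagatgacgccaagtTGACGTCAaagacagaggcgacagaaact
Npy chr4:80211961-80212130, plus strand: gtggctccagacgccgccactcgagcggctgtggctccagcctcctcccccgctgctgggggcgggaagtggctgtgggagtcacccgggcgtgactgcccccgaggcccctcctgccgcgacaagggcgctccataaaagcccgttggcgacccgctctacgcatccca

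The RefSeq table of start regions held 7 of the 9 genes in 8 windows of 300 bases, and it was searched on both strands. The full element TGACGTCA stood in 1.83% of 33469 such windows, among them those of Sst, at bases 3 to 10 from the RefSeq start, and of Nos1, at −9 to −2 counted back from it. The core TGACGTC, which every full element contains, stood in 3.22% of windows and was found once more in Nos1, at −119 to −113, and in 1 of 2 windows of Lhx8. Nos1 also held the AP-1 motif TGANTCA (7.33% of windows) and Sst the homeodomain core TAATTA (5.36% of windows), both outside the stretches shown. A match is a run of letters and not a measured site, and the RefSeq starts were not compared with the transcripts in the files, which are on another build.

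Levels are in FPKM, fragments per kilobase of transcript and aligned fragments of the library, so they are per length and genes can be compared on them, and each was divided by a size factor of its library. Sst was the highest of the 9 genes in the DMSO groups, with 227 ± 3.28 FPKM in experiment 1, 187 ± 11.1 in experiment 2 and 237 ± 4.05 in experiment 3 (SD, n = 2 in each). Npy was second with 134 ± 16.0, 82.3 ± 0.135 and 133 ± 8.71 FPKM. Between these neuropeptide genes and the other markers lay a wide gap, since Nos1, the next in experiments 1 and 3, had 17.3 ± 0.420 and 16.5 ± 0.412 FPKM.

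In experiment 3 the DMSO libraries of Calb2 (11.9 and 12.6 FPKM), Calb1 (11.6 and 12.1 FPKM) and Lhx6 (10.9 and 11.7 FPKM) overlapped along the order, so these neighbours did not differ beyond their spread. Lhx8 had 2.62 ± 0.281 FPKM there, and at the low end Pvalb had 0.839 ± 0.0243 FPKM and Chat 0.476 ± 0.121 FPKM, without overlap. The order was the same in experiment 1 except that the means of Calb1 and Lhx6 changed places, again with overlapping libraries. In experiment 2 Calb1, with 15.7 FPKM in both DMSO libraries, stood above Nos1 with 13.4 and 14.5 FPKM. Pvalb and Chat were thus under 1 FPKM in every DMSO library, while the neuropeptide genes were abundant.

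**Figure D1:**
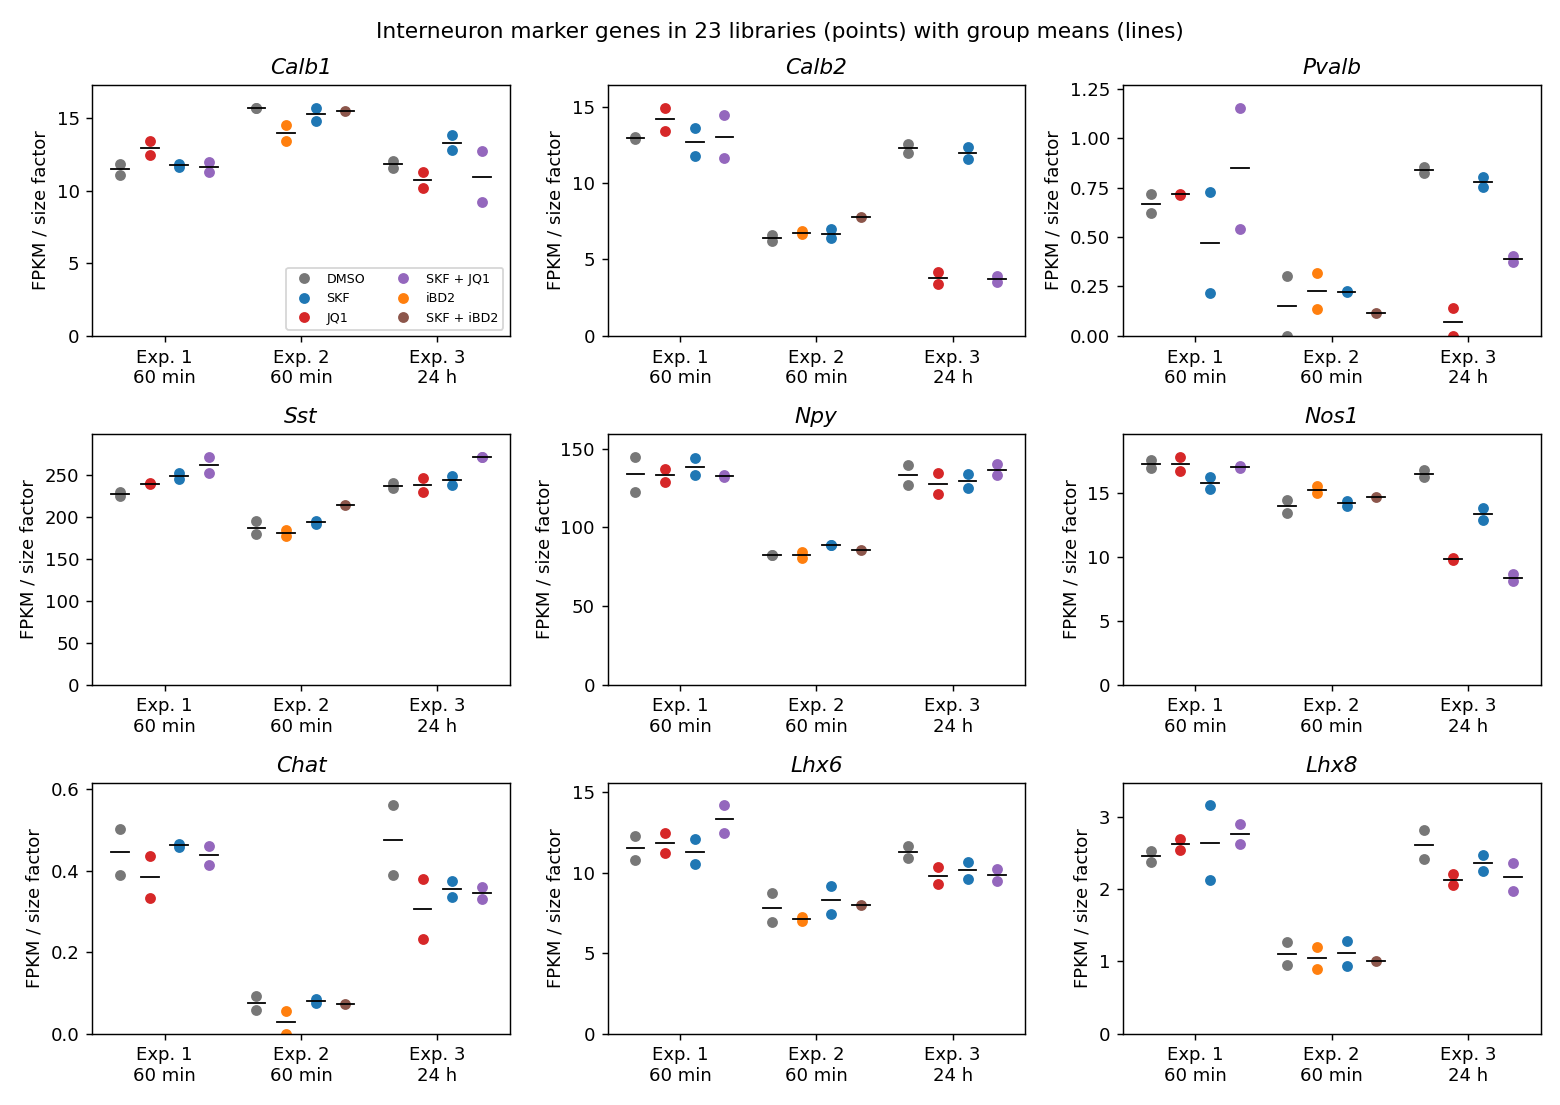
FPKM divided by the library's size factor (vertical axes, each from 0) of the 9 genes in all 23 libraries, by experiment and time (horizontal axes), points coloured by treatment and lines at group means. Calb2, Nos1 and Pvalb are low in the JQ1 groups at 24 h. The values of Sst are highest with SKF and inhibitor in each experiment (means of 262 and 272 FPKM in experiments 1 and 3, and 1 library at 215 FPKM in experiment 2). In experiment 1 the lower SKF with JQ1 library (252.68 FPKM) stands beside the upper SKF library (252.61 FPKM), and no change of Sst passed at 60 min.

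The experiments set apart the levels of most of these genes, before any treatment is considered. For 6 of the 9 genes (Calb2, Sst, Npy, Chat, Lhx6 and Lhx8) all libraries of experiment 1 lay above all libraries of experiment 2, which held for 18.1% of all genes tested. Chat is not among the genes tested that make up this share. Between the DMSO groups the mean was 5.96-fold higher in experiment 1 for Chat, 2.22-fold for Lhx8, 2.02-fold for Calb2, 1.62-fold for Npy and 1.47-fold for Lhx6, against a median fold of 0.995 over the 13259 tested genes whose DMSO means in these experiments summed to at least 1 FPKM. Nos1 and Sst stood closer, at 1.24-fold and 1.21-fold. Pvalb had 0.718 and 0.621 FPKM in the DMSO libraries of experiment 1 and 0.304 and 0 in those of experiment 2, too few reads for a firm fold. The fold of Chat likewise rests on 11.6 and 7.75 estimated reads in DMSO in experiment 2. Calb1 went the other way, at 0.732 of its level in experiment 2. Experiments 1 and 3, which carry the same replicate numbers in the labels, gave similar DMSO levels, with ratios of 0.949 to 1.25.

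Glial lists moved along with these levels. The summed FPKM of 12 astrocyte genes was 411 to 457 in the DMSO libraries of experiment 1 and 150.1 to 158 in those of experiment 2, and that of 12 microglial genes was 101 to 112 and 50.04 to 54.9. The summed FPKM of 26 projection neuron genes was 1188 to 1199 in experiment 1 and 1323 to 1335 in experiment 2. Neither these differences nor their part in the marker levels was tested, and the experiment cannot be told apart from the culture or the sequencing run, so each treatment is compared below with the controls of its own experiment.

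Other genes of interneuron biology place the 9 markers in context. The GABA-synthesizing enzyme genes Gad1 and Gad2, shared by projection neurons and most interneurons, had 341 to 421 and 324 to 418 FPKM over all libraries. Nkx2-1, the transcription factor of the medial ganglionic eminence, had 13.1 to 14.8 FPKM in experiment 1 and 5.45 to 7.00 FPKM in experiment 2, the same direction as Lhx6 and Lhx8. The choline transporter gene Slc5a7 had 2.003 to 3.70 FPKM in experiment 1 and 0.333 to 0.530 FPKM in experiment 2, and the vesicular acetylcholine transporter gene Slc18a3, which lies within Chat, had 0.441 to 0.732 and 0.178 to 0.335 FPKM. The peptide gene Vip, in contrast, had 10.8 to 13.1 FPKM in experiment 1 and 16.8 to 19.9 FPKM in experiment 2.

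At 60 min none of the 8 tested markers passed the test with any treatment. Changes are differences of log2(FPKM + 0.5) ± SE from limma, a gene was called at an adjusted p under 0.05 (Benjamini-Hochberg over 13999 genes), and intervals are 95% confidence intervals. SKF called 0 of 8 in experiment 1, where 1.71% of all genes were called, 0 of 8 in experiment 2 (2.32%) and 0 of 8 for the mean of both (3.98%), with 2, 0 and 1 at an unadjusted p under 0.05. JQ1 called 0 of 8 against DMSO (4.4% of all genes) and 0 of 8 when added to SKF (6.54%), with none at an unadjusted p under 0.05. iBD2 called 0 of 8 against DMSO (0.171%) and 0 of 8 when added to SKF (0.0214%), with 1 at an unadjusted p under 0.05 in each. The counts were also 0 with limma voom. The interactions of SKF with JQ1 (0.00714% of all genes) and with iBD2 (0.0143%), and the difference between the effects of JQ1 and iBD2 (0.907%), called none of the markers either, with 0, 1 and 1 at an unadjusted p under 0.05.

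The intervals at 60 min were narrow for the abundant markers. Over the 6 comparisons of a treated group with its matched group, the 7 tested genes other than Pvalb had log2 changes from −0.16 to 0.23, with a lowest adjusted p of 0.31. Sst, with 229 and 225 FPKM in DMSO and 245 and 253 FPKM in SKF in experiment 1, did not overlap there between groups. Nos1 did not overlap there either, but was lower with SKF, at 17.0 and 17.6 FPKM in DMSO and 15.4 and 16.3 in SKF. Nor did Npy in experiment 2, with 82.2 and 82.4 FPKM in DMSO and 88.6 and 88.7 in SKF. How many of all genes were set apart in this way was not counted. In experiment 2 Sst had 195 and 179.6 FPKM in DMSO and 191 and 196 FPKM in SKF, which did overlap. Its mean change with SKF over both experiments was 0.09 (interval 0.02 to 0.16, adjusted p = 0.23), so a rise much larger than that lay outside the interval. Npy had 0.08 (interval −0.03 to 0.19) and Nos1 −0.05 (interval −0.13 to 0.03) for the same contrast.

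Pvalb was too scarce at 60 min for such bounds. Its 8 libraries of experiment 1 ranged from 0.216 to 1.154 FPKM, with a median of 0.716 and 9.61 to 69.1 reads estimated from coverage. In experiment 2 it ranged from 0 to 0.320 FPKM, at most 8.83 estimated reads, and 1 DMSO library was listed at 0. The interval of its change with JQ1 at 60 min ran from −0.47 to 0.59.

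**Figure D2:**
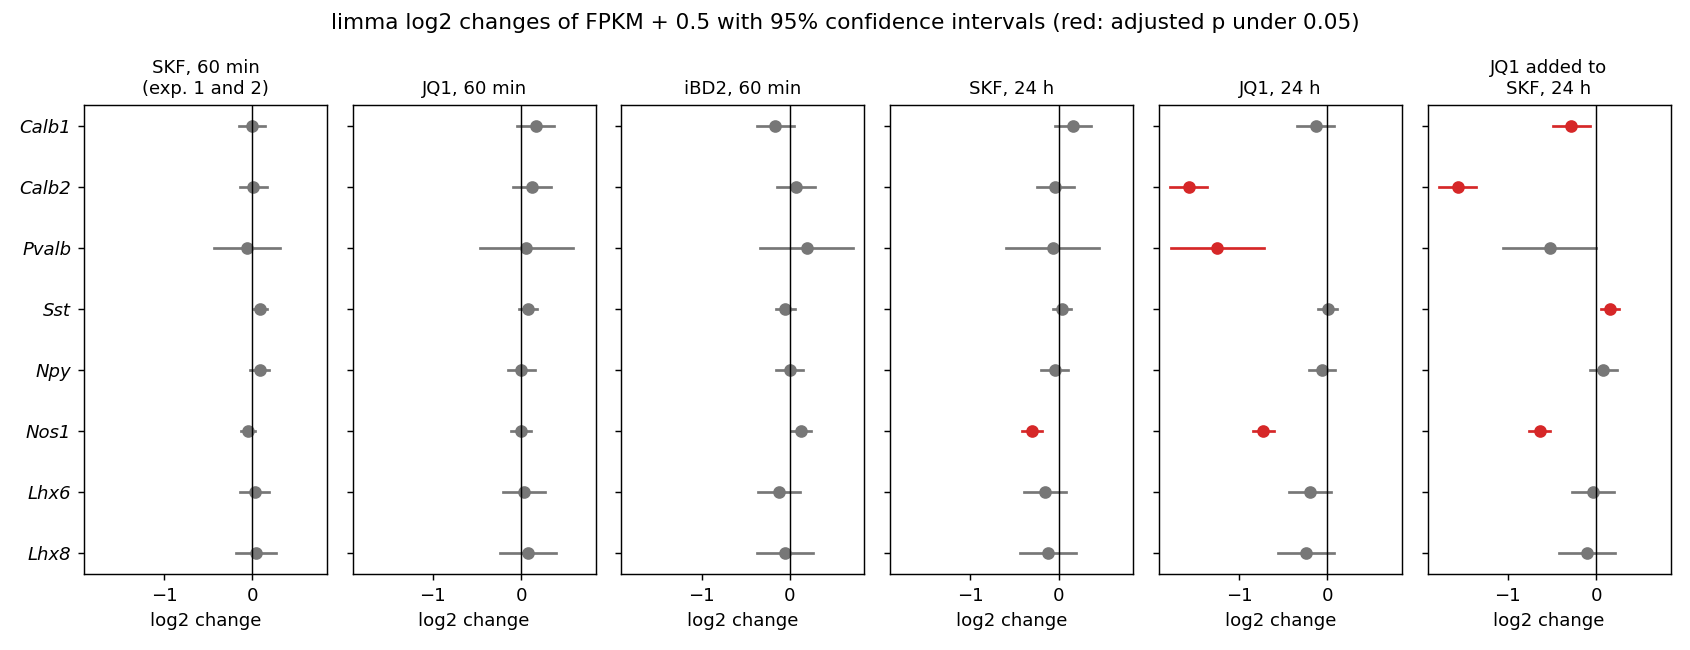
Change of log2(FPKM + 0.5) with its 95% confidence interval (horizontal axes) for the 8 tested genes (rows) in 6 comparisons (panels), from the limma fit, red where the adjusted p was under 0.05. No gene is red at 60 min, Nos1 is red in each 24 h panel, and Calb2 is red at about −1.57 in both JQ1 panels.

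After 24 h of JQ1 the markers parted: Calb2, Pvalb and Nos1 fell, and Sst, Npy, Lhx6, Lhx8 and Calb1 did not pass. This comparison called 3 of the 8 genes, all lower, where 56.7% of all genes were called, 28.6% lower and 28.1% higher, so the number of markers called was not above the background. The median log2 change of the 8 genes was −0.22, and that of all genes was 0.01. The size factors hold the typical gene steady, so every rise or fall is relative to it. A shift shared by all genes would not be seen. With SKF present in both groups, JQ1 called 4 of 8, with Calb2, Nos1 and Calb1 lower and Sst higher, where 56.4% of all genes were called, 28.7% lower and 27.7% higher. The difference between the JQ1 effects with and without SKF (the interaction, 0.0429% of all genes called) called 0 of 8 with limma and with limma voom, and 1 had an unadjusted p under 0.05, Sst.

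Calb2 (chromosome 19, 41482728 to 41509658, plus strand, Rnor_6.0 as in the files) encodes calretinin and fell with JQ1. It had 11.9 and 12.6 FPKM in the DMSO libraries at 24 h, 4.21 and 3.43 FPKM with JQ1, 12.3 and 11.6 FPKM with SKF, and 3.50 and 3.93 FPKM with SKF and JQ1. The 4 libraries with JQ1 lay far below the 4 without it, and neither pair was set apart by SKF. The change with JQ1 was −1.57 ± 0.10 (adjusted p = 1.8e-09), a 2.97-fold lower level, and −1.57 ± 0.10 (adjusted p = 1.8e-09) when SKF was present. At 60 min the 4 libraries with JQ1 had 11.6 to 14.9 FPKM and the 4 without it 11.7 to 13.6 FPKM, which overlap. The JQ1 effect at 24 h minus that at 60 min was −1.70 ± 0.14 (adjusted p = 2.2e-07), a contrast that called 3 of the 8 markers, where 36.6% of all genes were called. Of all genes tested, 0.743% had a lower change than Calb2 with JQ1 at 24 h.

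Pvalb (chromosome 7, 119429019 to 119441487, minus strand) encodes parvalbumin, the calcium buffer of fast-spiking cells. Its libraries at 24 h had 0.857 and 0.822 FPKM in DMSO, 0 and 0.140 in JQ1, 0.806 and 0.752 in SKF, and 0.402 and 0.374 in SKF with JQ1. These levels rest on 39.3 and 64.6 estimated reads in DMSO and on 0 and 6.26 in JQ1, and the groups did not overlap. Pvalb met the level needed for testing in libraries of experiments 1 and 3 alone, none of them treated with JQ1 for 24 h. The change with JQ1 was −1.24 ± 0.25 (adjusted p = 0.00049), but its size depends on the constant added before the log: −2.60 with 0.1, −0.78 with 1 and −4.04 with limma voom, each past the threshold. When SKF was present the change was −0.53 ± 0.25 (adjusted p = 0.083), which passed in 4 of 30 alternatives, among them the replicate block (adjusted p = 0.031) and a fit of experiment 3 by itself (adjusted p = 0.0076). For Pvalb the difference between both JQ1 effects was 0.72 (interval −0.03 to 1.46, adjusted p = 0.86).

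Calb1 (chromosome 5, 29538380 to 29562773, plus strand) encodes calbindin. At 24 h it had 11.6 and 12.1 FPKM in DMSO, 10.2 and 11.3 in JQ1, 13.8 and 12.8 in SKF, and 9.25 and 12.7 in SKF with JQ1. The last pair lay far apart, and its upper library was close to the lower SKF library. Its change with JQ1 in the presence of SKF was −0.28 ± 0.10 (adjusted p = 0.022), but −0.06 (adjusted p = 0.55) without the SKF with JQ1 library numbered 5, −0.50 (adjusted p = 7.2e-05) without the one numbered 6, and −0.23 (adjusted p = 0.14) without the SKF library numbered 5. The call was also lost when experiment 3 was analysed by itself (adjusted p = 0.081) or low genes were kept (adjusted p = 0.066). With JQ1 against DMSO Calb1 had −0.13 (interval −0.34 to 0.08).

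Sst (chromosome 11, 80358211 to 80359444, plus strand) encodes somatostatin. Relative to the typical gene, it held its level under 24 h of JQ1 alone within narrow bounds. The libraries had 239.9 and 234 FPKM in DMSO, 246 and 229.8 FPKM in JQ1, 249 and 238 FPKM in SKF, and 271.9 and 271.5 FPKM in SKF with JQ1. The first 3 groups overlapped, and both libraries with SKF and JQ1 stood above the other 6. JQ1 against DMSO had a change of 0.01 ± 0.05 (interval −0.10 to 0.11, adjusted p = 0.93). When SKF was present Sst rose by 0.16 ± 0.05 (adjusted p = 0.013), a 1.12-fold higher level, a call lost on FPKM as deposited (0.09, adjusted p = 0.20), with experiment 3 fitted alone (adjusted p = 0.052) and without the SKF library numbered 6 (0.13, adjusted p = 0.11). At 60 min the highest Sst library of each experiment was also one with SKF and inhibitor, at 271.99 FPKM in experiment 1 and 215 FPKM in experiment 2, where no change passed.

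Npy (chromosome 4, 79573998 to 79581208, plus strand) encodes neuropeptide Y and showed no called change at 24 h. It had 127 and 139 FPKM in DMSO, 135 and 121 in JQ1, 134 and 125 in SKF, and 139.95 and 134 in SKF with JQ1. All 4 groups overlapped. The change with JQ1 was −0.06 (interval −0.21 to 0.09) and 0.08 (interval −0.07 to 0.23) when SKF was present.

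Nos1 (chromosome 12, 44213943 to 44520341, minus strand) encodes neuronal nitric oxide synthase and was the 1 marker called in each of the 3 comparisons of a treated with a matched group at 24 h. Its libraries had 16.8 and 16.2 FPKM in DMSO, 12.9 and 13.8 in SKF, 9.88 and 9.74 in JQ1, and 8.10 and 8.68 in SKF with JQ1. These 4 groups stood in that order with no overlap. With JQ1 it fell by 0.72 ± 0.05 (adjusted p = 1.3e-08), to a level 1.65-fold lower, and when SKF was present it fell by 0.64 ± 0.05 (adjusted p = 5.2e-08). The interaction was 0.08 (interval −0.08 to 0.25), so a large departure from additive changes lay outside the interval.

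With SKF for 24 h, Nos1 was the 1 of 8 markers called, where 1.49% of all genes were called, and it fell from 16.5 ± 0.412 to 13.3 ± 0.665 FPKM. Its change was −0.30 ± 0.05 (adjusted p = 0.0062). The call did not survive the loss of the DMSO library numbered 5 (−0.27, adjusted p = 0.10) or the SKF library numbered 5 (−0.25, adjusted p = 0.11), nor a fit of experiment 3 alone (−0.30, adjusted p = 0.071). At 60 min in experiment 1 its change with SKF was −0.12 (adjusted p = 0.56), and in experiment 2 it was 0.03 (adjusted p = 0.92). The difference between the SKF effects at 24 h in experiment 3 and 60 min in experiment 1, chosen after the data were seen, did not pass (−0.17, adjusted p = 0.52, where 1.29% of all genes were called).

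The files hold 2 Nos1 transcripts, of 6828 and 4290 nucleotides, and the longer one took 82.9 to 95.4% of Nos1 FPKM in the 23 libraries. Alone it gave the same order at 24 h, with 15.1 to 16.0 FPKM in DMSO, 11.8 to 13.1 in SKF, 8.19 to 8.85 in JQ1 and 7.59 to 8.18 in SKF with JQ1, where the last ranges nearly touch. The shorter one, much lower in level, did not follow that order. It had 0.771 to 1.09 FPKM in DMSO, 0.755 to 1.04 in SKF, 0.896 to 1.69 in JQ1 and 0.495 to 0.512 in SKF with JQ1. Fbxo21 (chromosome 12, 44246508 to 44279002, minus strand) lies within Nos1 on the same strand, so reads may be shared between them. Its level rose with JQ1 at 24 h, by 0.22 ± 0.05 (adjusted p = 0.0021), opposite to Nos1.

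Chat (chromosome 16, 8577840 to 8686131, minus strand) encodes choline acetyltransferase and missed the level needed for testing, since 1 library reached 0.5 FPKM as deposited. After division by the size factor it had 0.333 to 0.502 FPKM in experiment 1, 0 to 0.0919 FPKM in experiment 2 and 0.233 to 0.561 FPKM in experiment 3, from 50.8 to 149 estimated reads in the last. At 24 h the JQ1 libraries had 0.379 and 0.233 FPKM, and the DMSO libraries 0.561 and 0.390 FPKM.

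Lhx6 (chromosome 3, 15411939 to 15433252, minus strand) had 11.7 and 10.9 FPKM in DMSO, 9.27 and 10.3 in JQ1, 9.63 and 10.6 in SKF, and 10.3 and 9.51 in SKF with JQ1. The DMSO libraries were the highest at 24 h, but no change passed (−0.20, interval −0.43 to 0.04, adjusted p = 0.15 with JQ1), except in a fit of experiment 3 alone (−0.21, adjusted p = 0.042). Lhx8 (chromosome 2, 260574190 to 260596777, minus strand) had 2.82 and 2.42 FPKM in DMSO, 2.06 and 2.21 in JQ1, 2.47 and 2.25 in SKF, and 2.37 and 1.97 in SKF with JQ1. Its change with JQ1 was −0.24 (interval −0.56 to 0.08, adjusted p = 0.19).

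**Figure D3:**
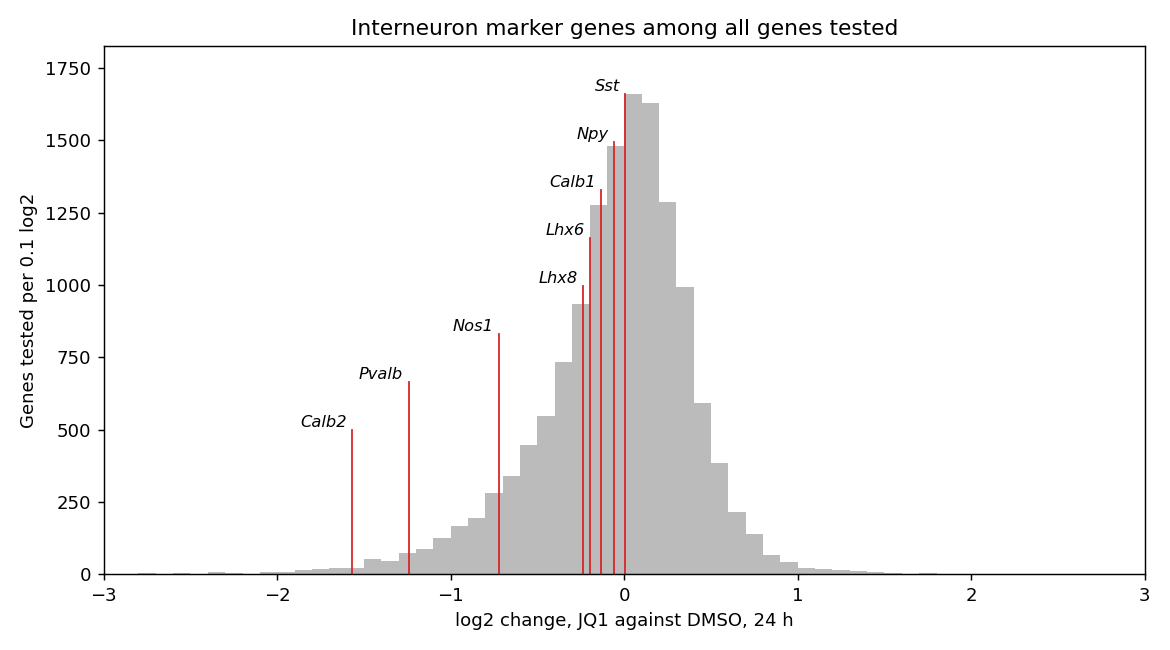
Number of genes tested per 0.1 of log2 change (vertical axis) by the change with JQ1 against DMSO at 24 h (horizontal axis, grey), with red lines at the 8 marker genes, whose heights only separate the names. Calb2 and Pvalb lie in the lower tail, Nos1 on its shoulder with 7.66% of genes below it, and Sst near the middle with 49.9% below it.

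Nos1, Calb2, Npy and Lhx6 were also set against Sst within each library, a ratio that no size factor touches. The ratio was chosen after the data were seen and is given as a description. Sst had a change of 0.01 with JQ1 at 24 h, so the ratios largely restate the changes above and add no separate evidence. With SKF present Sst rose by 0.16, which by itself lowers the ratios of the libraries with SKF and JQ1. In experiment 3 Nos1 stood at 5.18 to 7.01% of the Sst level in the 4 libraries without JQ1 and at 2.98 to 4.24% in the 4 with it. Calb2 stood at 4.86 to 5.37% and 1.29 to 1.71%. Npy, at 52.4 to 59.5% and 49.2 to 54.6%, and Lhx6, at 3.87 to 4.86% and 3.50 to 4.50%, overlapped between libraries without and with JQ1. After 60 min of JQ1 in experiment 1 the ratios of Nos1 overlapped, at 6.27 to 7.83% and 6.30 to 7.41%, and so did those of Calb2, at 4.80 to 5.78% and 4.60 to 6.25%.

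**Figure D4:**
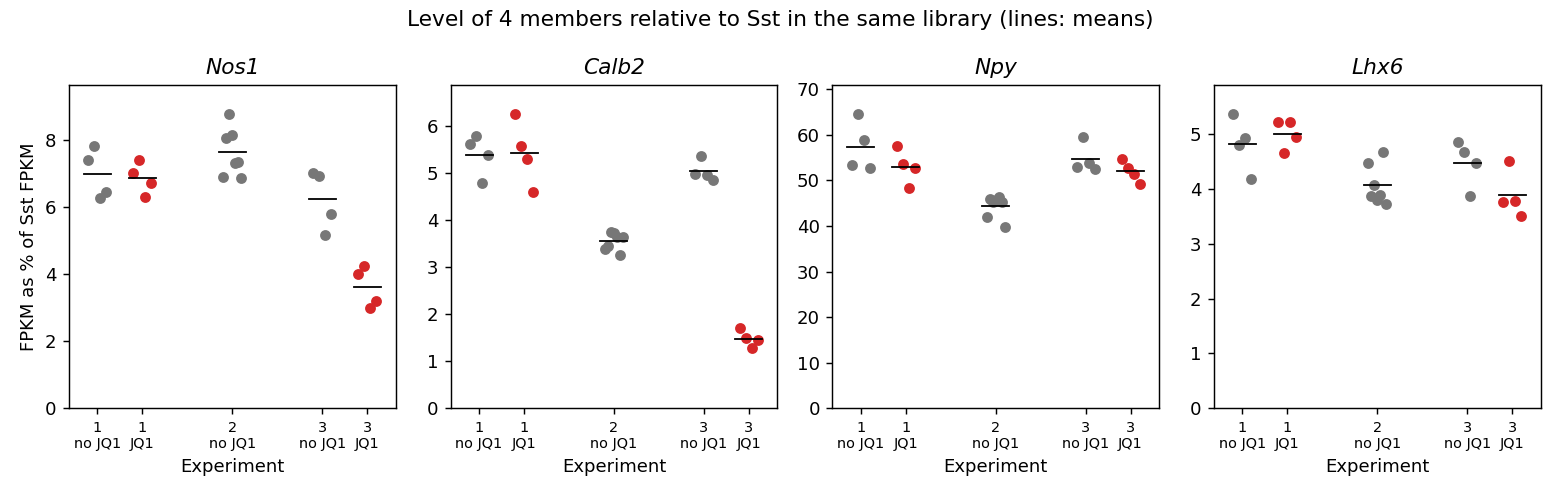
FPKM of Nos1, Calb2, Npy and Lhx6 as a percentage of Sst FPKM in the same library (vertical axes, from 0), by experiment without and with JQ1 (horizontal axes), with lines at means. Libraries with and without SKF are together, and the 7 of experiment 2, those with iBD2 included, count as without JQ1. In experiment 3 the Nos1 and Calb2 points with JQ1 lie below all those without it, and the Npy and Lhx6 points overlap.

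Other markers of interneurons went both ways with 24 h of JQ1. Of 46 further genes listed, 43 were found and 41 tested, of which 10 rose and 13 fell, where 28.1% of all genes rose and 28.6% fell. That is close to the background, and the median change was −0.04. Htr3a, the serotonin receptor subunit of a class of cortical interneurons, fell by 1.68 ± 0.08 (adjusted p = 1.6e-10), from a mean of 3.71 to 0.809 FPKM. Kcnc2, a fast potassium channel subunit of parvalbumin cells, fell by 0.82 ± 0.08, and the peptide gene Cck fell by 0.66 ± 0.07. Dlx6, a homeobox gene of GABAergic precursors, rose by 0.67 ± 0.06 (adjusted p = 1.3e-07), from 21.1 to 33.99 FPKM. With SKF present in both groups 10 rose and 13 fell, and the smallest p-values were again those of Htr3a at −1.65 ± 0.08, Kcnc2 at −1.10 ± 0.08, Dlx6 at 0.77 ± 0.06 and Cck at −0.82 ± 0.07. With SKF for 24 h, 2 of the 41 fell, the neurexin ligand gene Nxph1 (−0.25 ± 0.05, adjusted p = 0.015) and the substance P receptor gene Tacr1 (−0.54 ± 0.13, adjusted p = 0.044), and none rose, where 1.49% of all genes were called. At 60 min SKF raised 4 of the 41 in experiment 1 (1.71% of all genes called) and 4 in experiment 2 (2.32%). JQ1 for 60 min raised 3 against DMSO (4.4%) and 4 when added to SKF (6.54%). None of the 41 fell in these 60 min comparisons, and iBD2 called none.

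Markers of other cells moved in the same comparisons. All 12 microglial genes fell with JQ1 at 24 h, with a median change of −2.003, and their summed FPKM was 93.3 to 111 in DMSO, 41.4 to 57.2 in SKF, 15.2 to 19.9 in JQ1 and 2.42 to 4.08 in SKF with JQ1. Of the 12, Aif1, Itgam and Ptprc were listed at 0 in at least 1 JQ1 library, and Aif1, Cx3cr1, P2ry12 and Ptprc in at least 1 SKF with JQ1 library. With SKF for 24 h 9 of the 12 fell. The part of these microglial changes in the Nos1, Calb2 and Pvalb results was not tested.

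The other lists are to be read against the 56.7% of all genes called with JQ1 at 24 h. Of 9 general neuronal genes, 2 rose and 3 fell. Those with the smallest p were Elavl4 (−0.75 ± 0.06), Tubb3 (−0.50 ± 0.05), Nefl (0.37 ± 0.07) and Rbfox3 (−0.24 ± 0.08), and the summed FPKM over the 9 genes was 1941 to 2135 in DMSO and 1805 to 1895 in JQ1. Of 26 projection neuron genes 6 rose and 7 fell. Those with the smallest p were Pdyn, the prodynorphin gene of D1 neurons (−0.97 ± 0.08), Drd1, the D1 receptor gene (−1.07 ± 0.09), Adora2a, the adenosine receptor gene of D2 neurons (−0.98 ± 0.11), and the opioid receptor gene Oprm1 (−0.57 ± 0.07). Of 11 astrocyte genes tested 5 fell and 0 rose, of 12 oligodendrocyte genes 3 rose and 4 fell, of 8 cortical excitatory genes 3 rose and 1 fell, and of 8 progenitor genes 5 rose and 0 fell. When JQ1 was added to SKF, 56.4% of all genes were called, 28.7% lower and 27.7% higher. Of the 26 projection neuron genes 7 then rose and 12 fell, with a median change of −0.28, against −0.05 without SKF. Of the 9 general neuronal genes 1 rose and 4 fell, and of the astrocyte genes 4 rose and 3 fell. In that comparison 3 oligodendrocyte genes rose and 2 fell, 3 cortical excitatory genes rose and 1 fell, and 6 progenitor genes rose and 0 fell. Of the 8 endothelial and mural genes found, 7 were under 0.5 FPKM in every library. The 1 tested, Acta2, was not called with JQ1 against DMSO. It rose when JQ1 was added to SKF (0.88 ± 0.29, adjusted p = 0.016). Of 2 fibroblast genes tested 1 fell with JQ1 against DMSO, and 0 were called when JQ1 was added to SKF. None of these lists was tested as a source of the marker changes.

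Over the 23 libraries, after the mean of each experiment was subtracted, Calb2 and Nos1 had a Pearson correlation of log2 levels of 0.91, Lhx6 and Lhx8 of 0.65, Sst and Npy of 0.28, and Sst and Nos1 of −0.43. These libraries share their treatments, so the values describe the treated groups. Among named genes with a mean of at least 1 FPKM, those most like Calb2 were Ramp2 (0.99), Trpv2 (0.99) and Mapk3 (0.98), and those most like Nos1 were Pik3cd (0.97), Gria1 (0.96) and Kcnip1 (0.96). Those most like Sst were C12H7orf61 (0.85), Dlx1 (0.82) and Tac1 (0.81), and those most like Npy were Paf1 (0.80), Csrp1 (0.73) and Tsg101 (0.73). The closest genes were Unc119 (0.85) for Pvalb, Ddn (0.84) for Calb1, Coro1c (0.72) for Lhx6 and Golm1 (0.78) for Lhx8.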

How the data were processed

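Libraries were stranded and depleted of ribosomal RNA, per the labels' protocols. Reads were processed on Rnor_6.0, and the tools named are StringTie, STAR, Trim Galore, FastQC and DESeq2, without versions, per the submitters' processing notes. The deposited files hold FPKM and coverage (the mean read depth over a transcript) for 41078 transcripts, as computed by the authors. For the counting, a strand setting was not given in the sources used here. Overlapping genes are therefore uncertain. FPKM were summed by gene and divided by median-ratio size factors (0.947 to 1.07). Genes needed 0.5 FPKM, as deposited, in 2 libraries and a transcript of 200 nucleotides, which left 13999. limma 3.58.1 in R 4.3.3 (trend, robust) fitted log2(FPKM + 0.5), with 1 mean per group, 11 residual degrees of freedom and two-sided tests. Fold changes on this scale understate low genes. For the lone SKF with iBD2 library, and for any group left with 1 library, the spread of the other groups is assumed. Reads were estimated as coverage times length over 101 bases. The 9 genes and the lists were chosen with earlier results of these data known. Named from other lists were at most the 4 smallest p in comparisons that called a marker, and for each tested marker the 3 most alike genes or the first of them. Gad1, Gad2, Nkx2-1, Slc5a7, Slc18a3, Vip, Fbxo21 and the microglial genes listed at 0 were picked with their values in view. Tried as alternatives were FPKM as deposited, constants of 0.1 and 1, no filter, a block for the replicate number, each experiment alone, limma voom on estimated reads, and each library left out in turn.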

Additional observations from a re-analysis of the deposited data

Results flagged for a closer look

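The effect of JQ1 differed between 24 h and 60 min for 3 of the 8 marker genes tested, by a contrast of the limma fit, where 36.6% of all genes were called. The log2 change at 24 h minus that at 60 min was −1.6955 for Calb2 (adjusted p = 2.2e-07), −1.3014 for Pvalb (adjusted p = 0.0089) and −0.7232 for Nos1 (adjusted p = 2.7e-06). The times are in different experiments, so time and experiment cannot be told apart. Each effect is relative to the DMSO libraries of its own experiment, and the reasons for the differences were not tested.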

How the results depend on the processing

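The falls of Calb2, Nos1 and Pvalb with JQ1 at 24 h passed in all 30 alternatives, with log2 changes of −1.72 to −1.44, −0.81 to −0.70 and −4.04 to −0.78. The number of markers called with SKF at 24 h was 1, became 0 with each experiment fitted alone, and ranged from 0 to 1 when 1 library was left out (0 without the DMSO or the SKF library numbered 5). No change of a marker that had been called reversed. With the replicate block, JQ1 at 24 h called 3 markers and JQ1 added to SKF called 5 in place of 4, Pvalb being the one gained (−0.53, adjusted p = 0.031), and no other call changed. Same-numbered libraries deviated together (a correlation over 0.1) in 1 of 6 pairs of groups in experiment 1, 1 of 3 in experiment 2 and 3 of 6 in experiment 3, so the numbers were not taken to pair the libraries. The same change of Pvalb also passed with each experiment alone (adjusted p = 0.0076) and without either SKF library of experiment 1 (adjusted p = 0.044 in both). That of Calb1 was lost in 4 alternatives, as given beside it. With 2 libraries per group, precision rests on the spread pooled over groups, and Pvalb and Chat in experiment 2 rest on under 15 estimated reads in every library.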
